A study of Mus musculus with 12 samples.

Results

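The BCL2 family decides whether a cell's mitochondria release the factors that start apoptosis, and 10 of its genes were followed here in naive CD4 T cells: Bcl2, Bcl2l1, Mcl1, Bcl2l11, Bbc3, Pmaip1, Bid, Bad, Bak1 and Bax. A gene was included when a probe set, the group of array probes read as 1 value, carried its symbol and no other in the array annotation. By this rule 9 of the 10 genes had 1 probe set each, out of 19938 genes with such a probe set, and Bax was not analysed here. No probe set carried the symbol of one of the 10 genes together with another symbol (0 found). Each value sums over the transcripts its probes match, so the long and short isoforms of Bcl2l1, Mcl1 or Bcl2l11 were not told apart.

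RNA came from C57BL/6 mice, either transgenic for PP2Ac (Tg) or WT, and the source label of the WT arrays reads "WT transgenic mice". PP2Ac is the catalytic subunit of protein phosphatase 2A and is encoded by Ppp2ca. Cells of each genotype were taken unstimulated (0 h) or after 6 h or 24 h with soluble antibodies to CD3 (0.25 ug/mL) and CD28 (0.5 ug/mL) over plate-bound antibody to hamster immunoglobulin. Each of the 6 groups had 2 arrays, 1 of them marked Rep in its title and 1 unmarked, for 12 arrays in all. The promoter of the transgene, the number of mice and whether cells were pooled are not given in the labels. The labels do not say that paired arrays came from separate mice or cultures, so the spread that p-values rest on here may be technical only.

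As background, BCL2, BCL-xL (from Bcl2l1) and MCL1 hold cells alive by binding the pore-forming effectors BAX and BAK1 and the BH3-only proteins. The BH3-only proteins BIM (Bcl2l11), PUMA (Bbc3), NOXA (Pmaip1), BID and BAD carry stress and receptor signals to them. In resting T cells, cytokine signals through the IL-7 receptor maintain BCL2, and BIM is a main driver of T cell death. Costimulation through CD28 is known for raising BCL-xL. Several of these proteins are also controlled by phosphorylation, cleavage or turnover, which arrays do not measure.

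Ppp2ca (probe set 10375926) gave 13.90 and 13.88 on the log2 scale in Tg cells at 0 h, against 13.15 and 13.15 in WT cells. Averaged over the 3 times, it was higher in Tg cells by 0.57 ± 0.05 (log2 difference ± SE, limma adjusted p = 0.0044). At single times the difference was 0.74 ± 0.08, 0.38 ± 0.08 and 0.60 ± 0.08 at 0 h, 6 h and 24 h, and none of these passed (adjusted p = 0.055, 1 and 0.28). All levels below are quantile-normalised log2 intensities, given for the unmarked array first and the Rep array second, and differences are log2 values ± the SE of 1 fit of all 12 arrays. Of the naive CD4 T cell markers listed, 7 of 9 were measured, and their median per array lay between 12.89 and 13.75. Against 0 h, 5 of these 7 were called lower at 6 h and 2 at 24 h in each genotype, and 0 were called higher. Markers of other cells were present too. The median of 9 neutrophil markers was 11.99 and 11.42 in Tg cells at 0 h, 11.17 and 10.50 at 6 h and 10.71 and 10.31 at 24 h, against 12.49 and 9.03, 11.60 and 8.59, and 11.94 and 7.95 in WT cells. The WT arrays marked Rep thus stood apart from the other arrays in these markers, and also in the median of 6 measured monocyte and macrophage markers (8.50, 7.96 and 8.03, against 9.51 to 10.53 in the other arrays). Markers of B cells moved with time in both genotypes: of 5 measured, 3 were called lower at 6 h than at 0 h and 3 higher at 24 h than at 6 h in each. Their summed level (log2) was 13.74 to 13.82 at 0 h, 12.26 to 12.68 at 6 h and 13.79 to 13.81 at 24 h in Tg cells, and 13.71 to 13.82, 12.04 to 12.83 and 13.18 to 13.61 in WT cells. Of 7 dendritic cell markers, 3 in Tg and 2 in WT cells were called lower at 6 h, and 4 in each genotype at 24 h. The part of these cells in the changes with time and between the genotypes was not tested. The counts of calls in WT cells against 0 h and between the genotypes are also given without the WT arrays marked Rep. In such bulk RNA, fewer cells of a type and less RNA per cell cannot be told apart.

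Every gene of the family that passed the test at 6 h or 24 h against 0 h did so in both genotypes with the same sign, and the largest of these differences were those of Bcl2l1, the gene of the survival protein BCL-xL. At 6 h, 3 of the 9 measured genes were higher than at 0 h in Tg cells (Bcl2l1, Bid and Bak1), where 12.5% of all 23410 tested probe sets were called higher at an adjusted p under 0.05. In WT cells the 3 higher genes bore the same names, against 12.6% of all probe sets. Mcl1 and Bad were lower in each genotype, so that 2 of 9 fell in Tg cells, where 12.9% of all probe sets were called lower, and 2 of 9 fell in WT cells, where 13.9% were. At 24 h, Bcl2, Bcl2l1, Bid and Bak1 were higher than at 0 h in each genotype and none of the 9 was lower. The shares of all probe sets were 12% higher and 11.8% lower in Tg cells, and 12.9% higher and 13.8% lower in WT cells. The 6 h and 24 h comparisons of a genotype share their 0 h arrays. The median size of the 24 h difference, in either direction, was 0.49 over the 9 genes and 0.17 over all probe sets in Tg cells, and 0.51 and 0.19 in WT cells. By mean level, the 9 genes lay from percentile 51.5 (Pmaip1) to 96.6 (Bcl2) of the tested probe sets. Values over all probe sets, here and below, thus include many dimmer ones and are not matched for level. The median signed difference of the 9 genes was -0.07 in Tg cells and -0.14 in WT cells.

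Across the 3 comparisons of times in both genotypes, 20 differences of the family passed, and 20 of them had the same sign when computed from the Rep arrays alone and from the other arrays alone. These differences were called on the same arrays, and the comparisons share arrays, so the shared sign is largely set by the selection and is not replication. The values that follow give the unmarked arrays before the Rep arrays. For Bcl2l1 at 6 h these were 1.47 and 2.05 in Tg cells, and 1.74 and 2.19 in WT cells. Single arrays set some of the counts. The 5 calls at 6 h became 3 in Tg cells without the Rep array of either Tg 0 h or Tg 6 h, and 3 in WT cells without the Rep array of WT 0 h or the unmarked array of WT 6 h. The 4 calls at 24 h became 2 in Tg cells without the unmarked Tg 0 h array. Without the 3 WT arrays marked Rep, where the remaining WT arrays are assumed to vary like the Tg groups, the WT counts were 2 at 6 h and 2 at 24 h. Leaving out arrays can lower the power of the test for every probe set, and the shares called in those fits are not given here. Lower counts without some arrays are therefore not read as particular to these genes. With the replicate mark as a block, 5 of 9 genes passed at 6 h in Tg cells, where 29.4% of all probe sets did, and 5 of 9 in WT cells, where 30.5% did. At 24 h the blocked counts were 6 of 9 in each genotype, against 28.2% of all probe sets in Tg cells and 31.3% in WT cells.

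**Figure D1:**
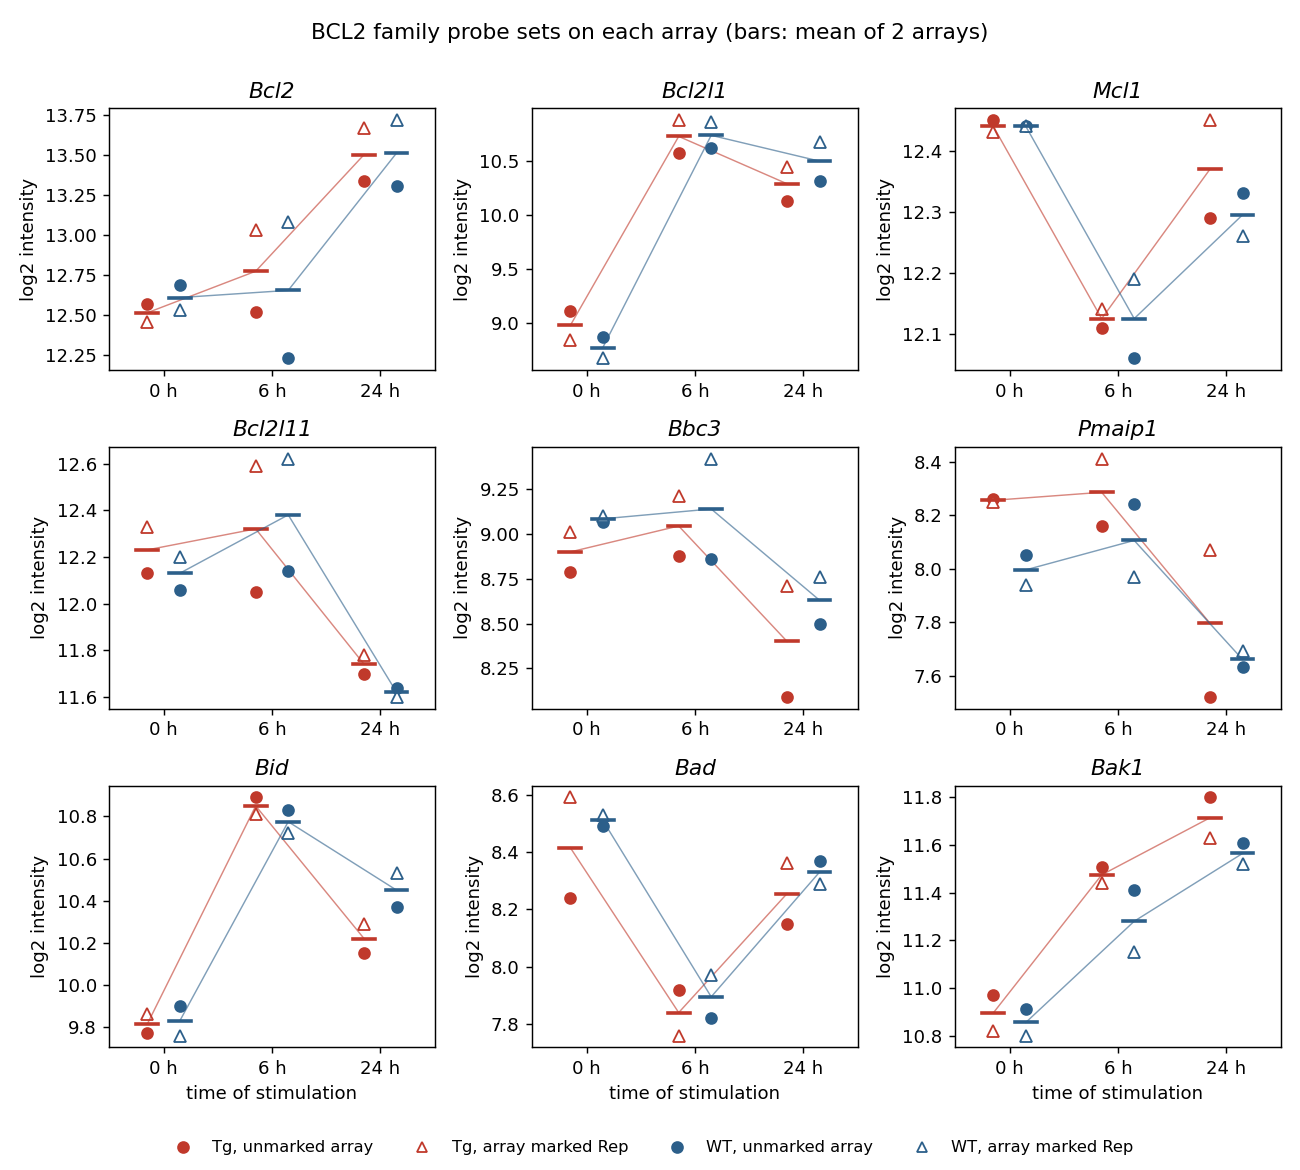
Log2 intensity of the 9 measured BCL2 family probe sets on each of 12 arrays by time of stimulation, with Tg left of WT at each time, circles for unmarked arrays, triangles for arrays marked Rep and bars for the mean of 2 arrays. Bcl2l1 lies at 8.67 to 9.11 at 0 h and at 10.13 to 10.88 at the later times in both genotypes, and Mcl1 and Bad dip at 6 h. The vertical axes differ between panels and do not start at 0.

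Among the anti-apoptotic genes, Bcl2l1 (probe set 10488655; chromosome 2, 152758732 to 152833803, GRCm38.p6) showed an early and lasting rise. In Tg cells it gave 9.11 and 8.84 at 0 h, 10.58 and 10.88 at 6 h and 10.13 and 10.45 at 24 h. In WT cells it gave 8.87 and 8.67, 10.62 and 10.86, and 10.32 and 10.68 at these times. Every stimulated array lay above every 0 h array in both genotypes. At 6 h the rise was 3.38-fold in Tg cells (1.76 ± 0.18, adjusted p = 0.00013) and 3.91-fold in WT cells (1.97 ± 0.18, adjusted p = 7.4e-05). At 24 h it was 2.49-fold in Tg cells (1.32 ± 0.18, adjusted p = 0.001) and 3.32-fold in WT cells (1.73 ± 0.18, adjusted p = 0.00023). These 4 calls held under all 22 alternative settings, including the 12 that each left out 1 array. The rise at 24 h was smaller in Tg than in WT cells by 0.41 on the log2 scale (-0.41 ± 0.25, 95% interval -0.98 to 0.16), which did not pass (adjusted p = 1, unadjusted p = 0.13). Over the 12 arrays, the probe sets closest to Bcl2l1 in pattern were those of Sqle, a cholesterol synthesis enzyme (Pearson r = 0.993), Irf4, a transcription factor of activated lymphocytes (r = 0.991), and Hsd17b7, another cholesterol synthesis enzyme (r = 0.99). The 12 arrays share the time course, so these values describe likeness across it.

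The sequence before 1 of the 3 Bcl2l1 start sites at hand, the most upstream of them, is shown because this gene had the largest differences. It lies at chr2:152831729-152831978 on the minus strand (RefSeq, GRCm38.p6, 250 bases, 5′ to 3′).
Bcl2l1: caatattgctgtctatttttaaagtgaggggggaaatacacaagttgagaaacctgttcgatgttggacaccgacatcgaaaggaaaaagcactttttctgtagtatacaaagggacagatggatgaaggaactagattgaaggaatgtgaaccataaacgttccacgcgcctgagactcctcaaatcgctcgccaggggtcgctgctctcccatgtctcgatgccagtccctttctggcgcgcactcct
Its promoter window, which adds 50 bases after the start, was searched on both strands for a FOXO motif (GTAAACA), a MYC E-box (CACGTG), an AP-1 motif (TGANTCA), a STAT GAS motif (TTCNNNGAA) and the NF-kB consensus. None of these letters was found in any of the 3 windows of Bcl2l1, so nothing stands in capitals. RefSeq windows of 8 of the 9 measured genes were searched, 14 windows in all, and 11 of them held no match. Pmaip1 was left out of the search.

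Bcl2 (probe set 10357043; chromosome 1, 106538176 to 106714290), the gene of the founding survival protein of the family, rose late. It gave 12.57 and 12.46 at 0 h, 12.52 and 13.03 at 6 h and 13.34 and 13.67 at 24 h in Tg cells. In WT cells it gave 12.69 and 12.53, 12.23 and 13.08, and 13.31 and 13.72. The 24 h arrays lay above all others of their genotype, while the 6 h arrays of WT lay on both sides of the 0 h values. At 24 h Bcl2 was 1.98-fold higher than at 0 h in Tg cells (0.98 ± 0.28, adjusted p = 0.03) and 1.88-fold higher in WT cells (0.91 ± 0.28, adjusted p = 0.038). At 6 h the differences were 0.25 ± 0.28 in Tg and 0.04 ± 0.28 in WT cells (adjusted p = 0.6 and 0.94). In Tg cells the 24 h call ended without any 1 of the 4 compared arrays (adjusted p 0.066 to 0.15), and with trended and robust moderation (0.055). In WT cells it ended without either WT 0 h array, the WT 24 h Rep array or either Tg 0 h array (adjusted p 0.058 to 0.2), and without the 3 WT arrays marked Rep (0.63, adjusted p = 0.19) or with that moderation (0.067). From 6 h to 24 h Bcl2 differed by 0.73 ± 0.28 in Tg and 0.86 ± 0.28 in WT cells (adjusted p = 0.12 and 0.074), and WT passed with the replicate mark as a block (adjusted p = 0.028). Gata3, the gene of a transcription factor of T cell development and Th2 cells, followed Bcl2 most closely over the 12 arrays (r = 0.992), ahead of Dennd2d (r = 0.956) and Cd2, an adhesion receptor of T cells (r = 0.943).

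Mcl1 (probe set 10494306; chromosome 3, 95656944 to 95663179), whose short-lived protein is needed for T cell survival, dipped at 6 h. It gave 12.45 and 12.43 at 0 h, 12.11 and 12.14 at 6 h and 12.29 and 12.45 at 24 h in Tg cells, and 12.44 and 12.44, 12.06 and 12.19, and 12.33 and 12.26 in WT cells. The 6 h arrays lay below all others in both genotypes. Mcl1 was 1.24-fold lower at 6 h than at 0 h in Tg cells (-0.32 ± 0.08, adjusted p = 0.02) and likewise 1.24-fold lower in WT cells (-0.31 ± 0.08, adjusted p = 0.02). The direction held under every alternative run, but the calls were close to the threshold. The Tg call ended without any 1 of the 4 compared arrays (adjusted p 0.065 to 0.096), and the WT call without either WT 0 h array (0.081) or the unmarked WT 6 h array (0.13), in a fit of the compared groups alone (0.091) and without the 3 WT arrays marked Rep (-0.38, adjusted p = 0.105). Median centring in place of quantile normalisation gave -0.26 in Tg and -0.25 in WT cells (adjusted p = 0.072 and 0.08). At 24 h the difference from 0 h was -0.07 ± 0.08 in Tg cells and -0.14 ± 0.08 in WT cells, neither past the threshold.

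Among the BH3-only genes, Bid rose, Bad fell at 6 h, and Bcl2l11 was lower at 24 h than at 6 h, while Bbc3 and Pmaip1 passed no test in the fit of 12 arrays without the block. Bid (probe set 10547531; chromosome 6, 120893119 to 120917062) encodes the protein through which caspase-8 links death receptors to mitochondria. It gave 9.77 and 9.86 at 0 h, 10.89 and 10.81 at 6 h and 10.15 and 10.29 at 24 h in Tg cells, and 9.90 and 9.76, 10.83 and 10.72, and 10.37 and 10.53 in WT cells. The 3 times did not overlap in either genotype, with 6 h highest and 0 h lowest. At 6 h Bid was 2.05-fold higher than at 0 h in Tg cells (1.03 ± 0.10, adjusted p = 8.5e-05) and 1.92-fold higher in WT cells (0.94 ± 0.10, adjusted p = 0.00012), under all 22 alternatives. At 24 h it was still 1.33-fold higher in Tg cells (0.41 ± 0.10, adjusted p = 0.014) and 1.54-fold higher in WT cells (0.62 ± 0.10, adjusted p = 0.0014). The 24 h call ended in Tg cells without the unmarked Tg 0 h array (adjusted p = 0.087) or the Tg 24 h Rep array (0.084), and in WT cells without the 3 WT arrays marked Rep (0.071). From 6 h to 24 h Bid fell by 0.63 on the log2 scale in Tg cells (-0.63 ± 0.10, adjusted p = 0.0035), and in WT cells the difference was -0.32 ± 0.10 (adjusted p = 0.057). The genes closest in pattern were Fasn, the fatty acid synthase (r = 0.99), Top1mt, the mitochondrial topoisomerase (r = 0.989), and Nol6, a nucleolar protein (r = 0.988).

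Bad (probe set 10461017; chromosome 19, 6941861 to 6951905) encodes a BH3-only protein held by 14-3-3 proteins while phosphorylated, and PP2A is among the phosphatases known to act on it. It gave 8.24 and 8.59 at 0 h, 7.92 and 7.76 at 6 h and 8.15 and 8.36 at 24 h in Tg cells, and 8.49 and 8.53, 7.82 and 7.97, and 8.37 and 8.29 in WT cells. The 6 h arrays lay below the 0 h and 24 h arrays in each genotype. At 6 h Bad was 1.49-fold lower than at 0 h in Tg cells (-0.57 ± 0.13, adjusted p = 0.0087) and 1.53-fold lower in WT cells (-0.61 ± 0.13, adjusted p = 0.006). The Tg call ended without the Rep array of Tg 0 h (adjusted p = 0.067) or Tg 6 h (0.065), and the WT call without the 3 WT arrays marked Rep (0.069). Between 6 h and 24 h Bad differed by 0.42 ± 0.13 in Tg cells and 0.44 ± 0.13 in WT cells (adjusted p = 0.06 and 0.052), and both passed with the replicate block (adjusted p = 0.044 and 0.038).

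Bcl2l11 (probe set 10475866; chromosome 2, 128126038 to 128162547), the gene of BIM, gave 12.13 and 12.33 at 0 h, 12.05 and 12.59 at 6 h and 11.70 and 11.78 at 24 h in Tg cells. In WT cells it gave 12.06 and 12.20, 12.14 and 12.62, and 11.64 and 11.60. The 24 h arrays were the lowest of each genotype, and at 6 h the Rep array was the higher of the pair in each. From 6 h to 24 h the WT value fell by 0.76 on the log2 scale (-0.76 ± 0.19, adjusted p = 0.031), and the Tg difference was -0.58 ± 0.19 (adjusted p = 0.079, and 0.022 with the replicate block). The WT call ended without the WT 6 h Rep array (-0.52, adjusted p = 0.18), without either WT 24 h array (adjusted p = 0.12 and 0.1), in a fit of the compared groups alone (0.11) and without the 3 WT arrays marked Rep (-0.50, adjusted p = 0.32). Against 0 h, the 24 h value differed by -0.49 ± 0.19 in Tg cells and -0.51 ± 0.19 in WT cells (adjusted p = 0.1 and 0.083), and the block gave adjusted p = 0.032 and 0.025. The WT difference also passed without either Tg 6 h array (0.042) and in a fit of the compared groups alone (0.028), and so did the Tg difference in that fit (0.027).

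Bbc3 (probe set 10550290; chromosome 7, 16308398 to 16318334), the gene of the p53 target PUMA, gave 8.79 and 9.01 at 0 h, 8.88 and 9.21 at 6 h and 8.09 and 8.71 at 24 h in Tg cells, and 9.07 and 9.10, 8.86 and 9.42, and 8.50 and 8.76 in WT cells. The 24 h arrays were again the lowest of each genotype. The 24 h difference from 0 h was -0.50 ± 0.24 in Tg and -0.45 ± 0.24 in WT cells (adjusted p = 0.17 and 0.21), and with the block adjusted p was 0.025 and 0.034. From 6 h to 24 h it was -0.65 ± 0.24 in Tg and -0.51 ± 0.24 in WT cells (limma adjusted p = 0.11 and 0.2). The block gave adjusted p = 0.012 and 0.033 for these. Pmaip1 (probe set 10456357), the gene of NOXA, a BH3-only protein that binds MCL1, gave 8.26 and 8.25 at 0 h, 8.16 and 8.41 at 6 h and 7.52 and 8.07 at 24 h in Tg cells, and 8.05 and 7.94, 8.24 and 7.97, and 7.63 and 7.69 in WT cells. Its 24 h arrays were the lowest of each genotype as well, at -0.46 ± 0.17 from 0 h in Tg and -0.34 ± 0.17 in WT cells (adjusted p = 0.088 and 0.2). The Tg difference passed without the Tg 24 h Rep array (-0.73, adjusted p = 0.011).

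From 6 h to 24 h, 1 of the 9 genes was called lower in Tg cells (Bid), where 6.42% of all probe sets were called lower and 7.89% higher, and none of the 9 was higher. In WT cells 1 of 9 was lower (Bcl2l11), where 5.86% of all probe sets were lower and 7.49% higher. With the replicate block 4 of 9 passed in Tg cells (Bid, Bcl2l11 and Bbc3 lower, Bad higher), where 9.32% of all probe sets were then lower and 9.96% higher. In WT cells 5 of 9 passed with the block (Bcl2l11 and Bbc3 lower, Bcl2, Bad and Bak1 higher), where 8.8% of all were lower and 9.56% higher. At an unadjusted p under 0.05 the counts were 8 of 9 in Tg cells, against 26.6% of all probe sets, and 6 of 9 in WT cells, against 27.1%. Leaving out 1 array also added calls in this comparison. In Tg cells Bcl2 passed without either WT 6 h array (adjusted p = 0.045), Bcl2l11 without the unmarked Tg 6 h array (0.03) or either WT 6 h array (0.0499), Bad without either Tg 0 h array (0.037), and Bbc3 and Pmaip1 without the Tg 24 h Rep array (0.043 and 0.016). In WT cells Bcl2 passed without the WT 6 h Rep array (1.29, adjusted p = 0.021), Bad without either Tg 0 h array (0.033) and Pmaip1 without either Tg 24 h array (0.0475).

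The promoter sequences of 3 BH3-only genes are shown because they differ in the motifs searched. The sequence before the Bid start lies at chr6:120916825-120917074 on the minus strand, that of Bcl2l11 at chr2:128125788-128126037 on the plus strand and that of a Bbc3 start at chr7:16310011-16310260 on the plus strand, and capitals mark the FOXO motif on either strand.
Bid: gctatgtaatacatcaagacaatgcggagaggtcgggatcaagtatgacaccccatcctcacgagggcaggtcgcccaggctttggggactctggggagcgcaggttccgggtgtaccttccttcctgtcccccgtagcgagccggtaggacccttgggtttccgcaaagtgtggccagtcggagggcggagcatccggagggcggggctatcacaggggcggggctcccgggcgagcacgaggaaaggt
Bcl2l11: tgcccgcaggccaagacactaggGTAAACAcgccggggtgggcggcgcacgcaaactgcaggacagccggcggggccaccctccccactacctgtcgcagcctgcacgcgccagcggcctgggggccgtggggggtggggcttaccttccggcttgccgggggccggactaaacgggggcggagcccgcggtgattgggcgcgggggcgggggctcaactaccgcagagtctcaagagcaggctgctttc
Bbc3: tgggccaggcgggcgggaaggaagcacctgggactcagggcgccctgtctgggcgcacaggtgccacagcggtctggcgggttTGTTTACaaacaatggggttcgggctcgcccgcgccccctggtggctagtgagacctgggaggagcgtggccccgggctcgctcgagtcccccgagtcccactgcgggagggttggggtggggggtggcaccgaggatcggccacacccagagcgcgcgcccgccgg
The FOXO letters begin 227 bases before the Bcl2l11 start and 167 bases before the Bbc3 start, and they occurred in 2 of the 14 windows of the measured genes, against 3.65% of 32851 RefSeq promoter windows of the same length. Another Bbc3 window held the E-box letters 64 bases before its start, and the window of Bax, which was not among the 14, held 2 E-boxes, so that 2 of 15 windows had one, against 7.15% of all windows. None of the 15 windows held the AP-1, GAS or NF-kB letters (7.81%, 8.3% and 0.244% of all windows). A match is a description of the letters and not a site of binding.

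Bak1 (probe set 10449303; chromosome 17, 27019812 to 27028627) was the effector gene measured, and its protein forms pores in the outer mitochondrial membrane once activated. It gave 10.97 and 10.82 at 0 h, 11.51 and 11.44 at 6 h and 11.80 and 11.63 at 24 h in Tg cells, and 10.91 and 10.80, 11.41 and 11.15, and 11.61 and 11.52 in WT cells. The 3 times did not overlap in either genotype and followed the order of time. From 6 h to 24 h, however, the difference was 0.24 ± 0.11 in Tg and 0.29 ± 0.11 in WT cells, and neither passed (limma adjusted p = 0.2 and 0.13). With the replicate block the WT difference passed (adjusted p = 0.031) and the Tg difference did not (0.06). Against 0 h, Bak1 was 1.49-fold higher at 6 h in Tg cells (0.58 ± 0.11, adjusted p = 0.0038) and 1.34-fold higher in WT cells (0.42 ± 0.11, adjusted p = 0.018). At 24 h it was 1.76-fold higher in Tg cells (0.82 ± 0.11, adjusted p = 0.00098) and 1.64-fold higher in WT cells (0.71 ± 0.11, adjusted p = 0.0014), in all 22 alternatives. The WT call at 6 h ended without the WT 0 h Rep array (adjusted p = 0.11), without the unmarked WT 6 h array (0.13), without the 3 WT arrays marked Rep (0.062) and in a fit of the compared groups alone (0.083). Closest in pattern were Coro2a (r = 0.972), B4galt5, a galactosyltransferase (r = 0.971), and Tpi1, a glycolytic enzyme (r = 0.968).

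**Figure D2:**
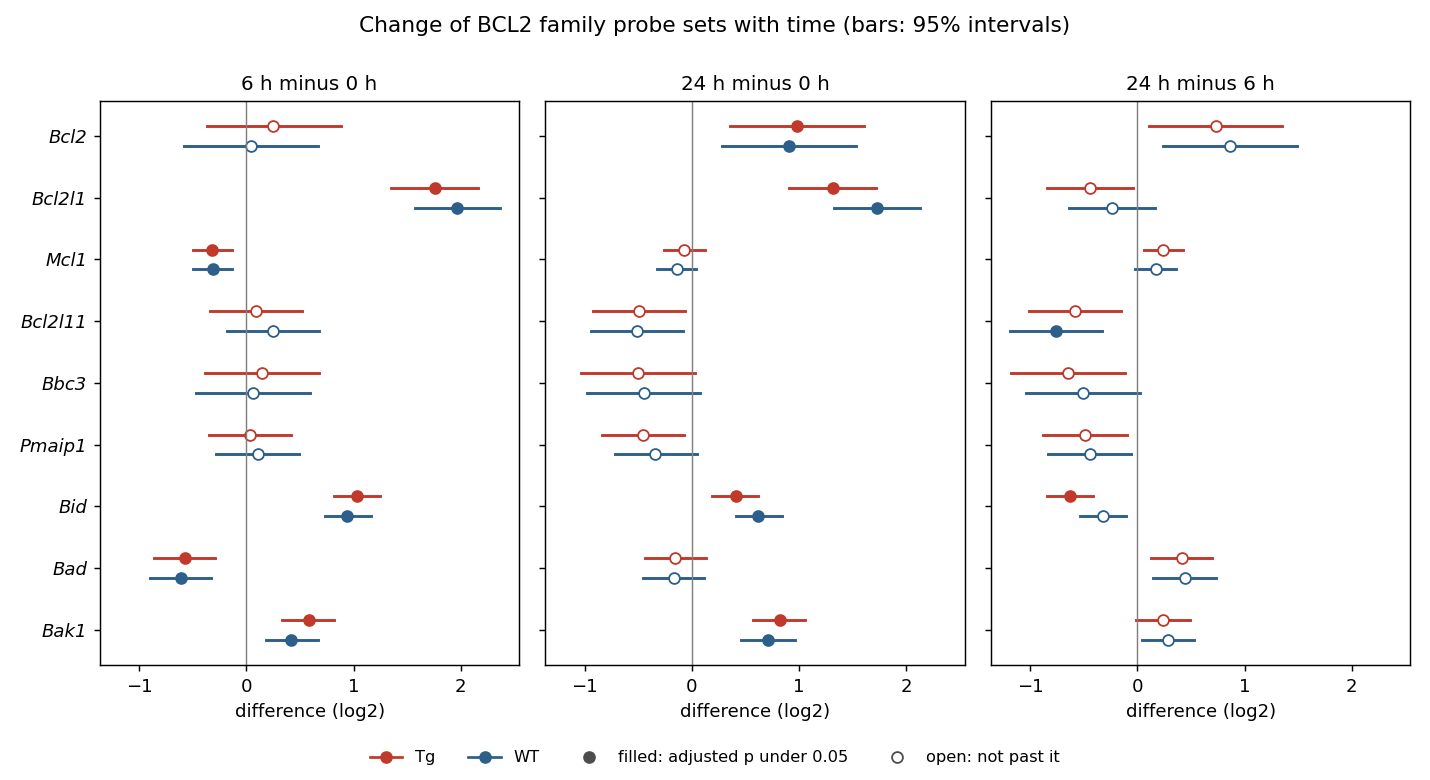
Log2 differences with 95% intervals for 6 h minus 0 h, 24 h minus 0 h and 24 h minus 6 h, with Tg drawn above WT for each gene, filled where the adjusted p is under 0.05. Bcl2l1 stands farthest to the right at 6 h (1.76 in Tg, 1.97 in WT), and Mcl1 and Bad stand left of 0 at 6 h with filled markers in both genotypes.

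No gene of the family passed the test between Tg and WT cells at any time, whether or not the WT arrays marked Rep were included. At 0 h, 6 h and 24 h, 0 of 9 passed, where 0.00854% of all probe sets passed at each time (2 of 23410), and averaged over the 3 times 0 of 9 passed, where 0.0256% did. Bid at 24 h was the 1 difference of the family at a single time with an unadjusted p under 0.05, while 834, 610 and 997 of all probe sets had one at 0 h, 6 h and 24 h. Bid gave 10.15 and 10.29 in Tg cells at 24 h, against 10.37 and 10.53 in WT cells, without overlap. That difference was -0.23 ± 0.10 (95% interval -0.45 to -0.01, unadjusted p = 0.039, adjusted p = 1), and it was -0.22 between the unmarked arrays and -0.24 between the arrays marked Rep.

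The intervals rest on the spread between arrays of a group, which may be technical only, and so may leave out variation between mice. They are not adjusted for the number of genes or comparisons. At single times the point differences of the family stayed within 0.25 on the log2 scale in either direction, and the 95% intervals ran from -0.72 to 0.64 at 0 h, -0.63 to 0.74 at 6 h and -0.76 to 0.61 at 24 h. Mcl1 had the narrowest interval, at -0.08 to 0.13 for the average over the 3 times (0.02 ± 0.05). Bcl2 averaged 0.00 ± 0.16 (interval -0.36 to 0.36) and Bcl2l1 0.00 ± 0.10 (interval -0.24 to 0.23). The largest averages were those of Pmaip1, at 0.19 ± 0.10 (interval -0.03 to 0.41, adjusted p = 0.8), and Bbc3, at -0.17 ± 0.14 (interval -0.48 to 0.14, adjusted p = 0.86). The Pmaip1 average was 0.01 between unmarked arrays and 0.37 between arrays marked Rep. WT neutrophil markers were low in the Rep set, and their part in the Pmaip1 values was not tested. Bak1 averaged 0.13 ± 0.06 (interval -0.01 to 0.27, adjusted p = 0.8), with 0.12 and 0.14 in these sets.

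The difference between the genotypes in the response to stimulation was tested directly, and 0 of the 9 genes passed at 6 h or at 24 h. Of all probe sets, 0% passed at either time by limma's test, with 420 and 625 of 23410 at an unadjusted p under 0.05, and 0 of the 9 genes had one at either time. The intervals of these differences ran from -0.78 to 1.09 at 6 h and from -0.98 to 0.96 at 24 h over the 9 genes. Intervals of some single genes were narrower: the 6 h interval was -0.26 to 0.26 for Mcl1 and -0.22 to 0.39 for Bid.

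**Figure D3:**
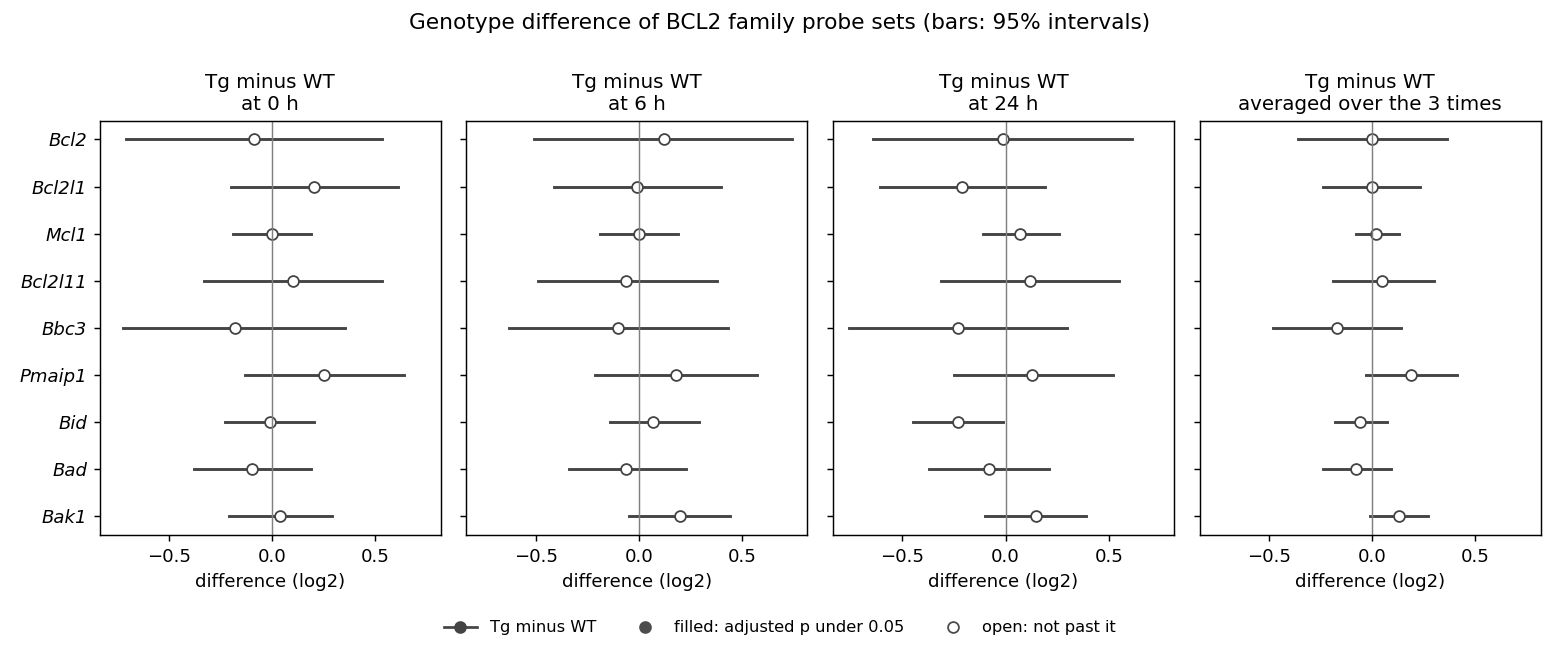
Log2 difference Tg minus WT with its 95% interval for the 9 genes at 0, 6 and 24 h and averaged over the 3 times. All markers are open (adjusted p not under 0.05), and the Bid interval at 24 h (-0.45 to -0.01) is the only one that leaves out 0.

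Of 16 other BCL2 family genes listed, 13 had a probe set of their own, and 1 of them rose and 2 fell at 6 h in each genotype. Over all probe sets, 12.5% were called higher and 12.9% lower at 6 h in Tg cells, and 12.6% and 13.9% in WT cells. At 24 h these shares were 12% and 11.8% in Tg cells, and 12.9% and 13.8% in WT cells. List counts near these shares, here and below, are not read as results about a list. Bcl2a1c, from the cluster of A1 survival genes, rose by 1.53 ± 0.16 in Tg and 1.76 ± 0.16 in WT cells (adjusted p = 0.00016 and 7.7e-05). Bmf, a BH3-only gene, fell by 0.88 (-0.88 ± 0.21) in Tg and by 1.0 (-1.0 ± 0.21) in WT cells, and Bnip3l, a mitophagy receptor gene, fell by 0.60 (-0.60 ± 0.10) and by 0.62 (-0.62 ± 0.10). A further 3 probe sets are shared by Bcl2a1a, Bcl2a1b, Bcl2a1c and Bcl2a1d, near-identical copies that cannot be told apart, and they rose by 1.37 to 1.43 in Tg and by 1.59 to 1.67 in WT cells at 6 h. At 24 h, 3 of the 13 were higher in Tg cells, Bcl2a1c (1.04 ± 0.16), Bcl2l14 (0.89 ± 0.15) and Bcl2l2 (0.41 ± 0.11), and 2 lower, Bmf (-0.98 ± 0.21) and Bnip3l (-0.44 ± 0.10). In WT cells 2 were higher at 24 h, Bcl2a1c (1.44 ± 0.16) and Bcl2l14 (0.98 ± 0.15), and 2 lower, Bmf (-0.96 ± 0.21) and Bnip3l (-0.44 ± 0.10). Between the genotypes none of the 13 passed. Leaving out the 3 WT arrays marked Rep kept the same WT calls at 6 h, and at 24 h Bnip3l no longer passed (-0.38, adjusted p = 0.12).

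**Figure D4:**
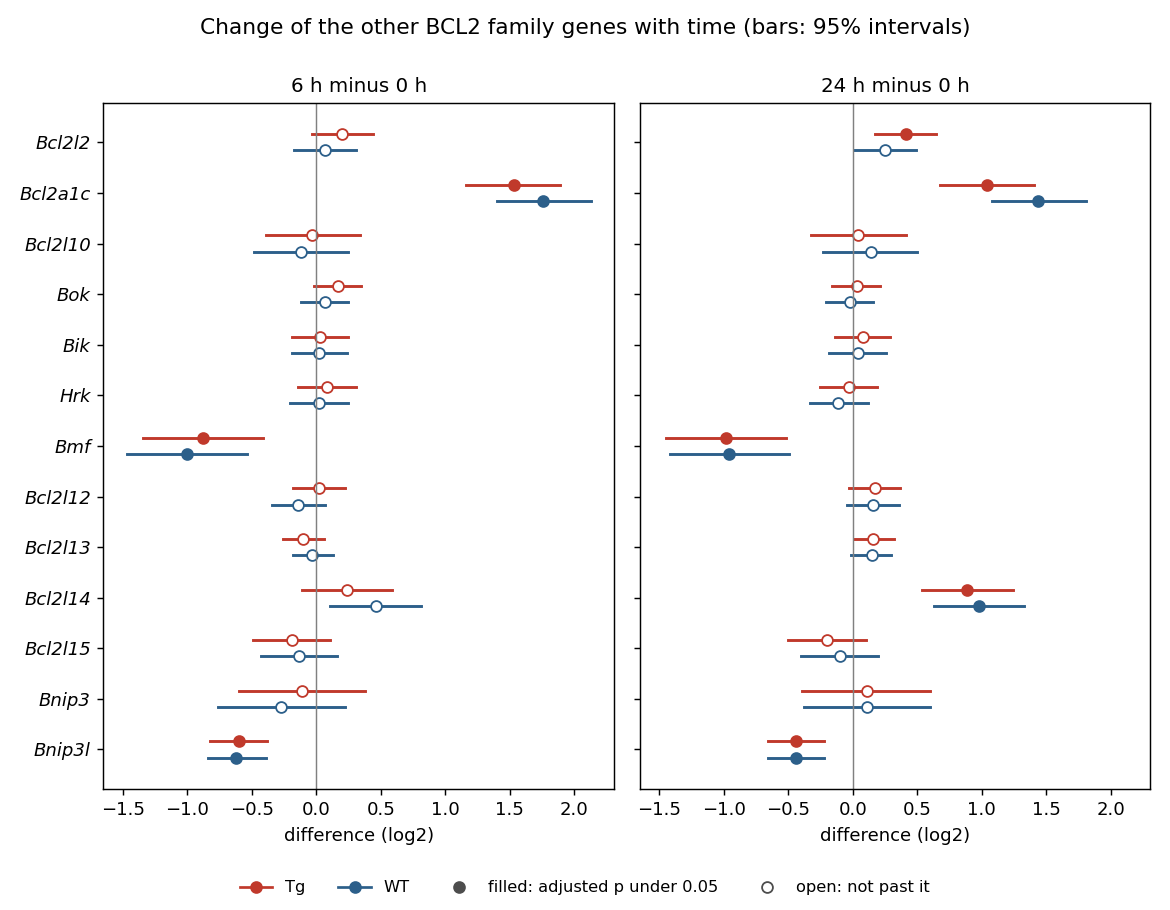
Log2 differences with 95% intervals for the 13 other measured BCL2 family genes, 6 h minus 0 h and 24 h minus 0 h, with Tg drawn above WT and filled markers where the adjusted p is under 0.05. Bcl2a1c lies at 1.53 in Tg and 1.76 in WT at 6 h, Bmf and Bnip3l lie left of 0 at both times, and 8 of the 13 genes have open markers in every position.

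Downstream of the family, 16 genes of the apoptosome, the caspases and their inhibitors were measured, and at 6 h 4 rose and 4 fell in each genotype. The shares of all probe sets at 6 h were 12.5% higher and 12.9% lower in Tg cells, and 12.6% and 13.9% in WT cells. The genes that rose were Endog, a mitochondrial nuclease gene, by 0.85 ± 0.13 in both Tg and WT cells, Cycs (cytochrome c) by 0.58 ± 0.10 and 0.66 ± 0.10, Aifm1, a mitochondrial flavoprotein gene, by 0.45 ± 0.13 and 0.49 ± 0.13, and Diablo, whose product binds inhibitors of caspases, by 0.35 ± 0.09 and 0.42 ± 0.09. Htra2, like these 4 the gene of a mitochondrial protein, did not pass (-0.13 ± 0.14 in Tg, -0.21 ± 0.14 in WT). The genes that fell were Casp9 by 0.85 (-0.85 ± 0.10 in both), Casp6 (-0.55 ± 0.12 in Tg, -0.76 ± 0.12 in WT), Casp8 (-0.38 ± 0.11 in Tg, -0.43 ± 0.11 in WT) and Casp2 (-0.28 ± 0.08 in Tg, -0.30 ± 0.08 in WT). At 24 h, 4 were higher and 2 lower in Tg cells, and 5 higher and 3 lower in WT cells. The 3 lower in WT cells were Casp9 (-0.80), Birc3 (-0.53) and Xiap (-0.31), the last 2 listed as inhibitors. Birc5, the gene of the mitotic protein survivin, was 2.07 ± 0.62 higher at 24 h in WT cells (adjusted p = 0.037), and the Tg difference was 1.74 ± 0.62 (adjusted p = 0.077). In WT cells 4 genes rose and 2 fell at 6 h once the 3 arrays marked Rep were left out, since Casp8 (-0.31, adjusted p = 0.2) and Casp2 (-0.39, adjusted p = 0.085) no longer passed. At 24 h 3 were then higher and 2 lower, and Birc5 no longer passed (2.43, adjusted p = 0.1).

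Upstream of Bid, 8 of 9 death receptor genes were measured and 3 rose at 6 h in each genotype, with none lower: Tnf by 1.88 ± 0.22 in Tg and 2.29 ± 0.22 in WT cells, Fas by 1.22 ± 0.18 and 1.41 ± 0.18 and Fasl by 0.76 ± 0.21 and 0.94 ± 0.21. At 24 h, 2 were higher in Tg cells (Tnf and Fas) and 1 in WT cells (Tnf). Upstream of Bbc3 and Pmaip1, 8 of 10 genes of the p53 arm were measured, of which 1 rose and 0 fell at 6 h, and 1 was higher and 2 lower at 24 h, in each genotype. For both lists, the shares of all probe sets at 6 h were 12.5% higher and 12.9% lower in Tg cells, and 12.6% and 13.9% in WT cells. Trp53inp1, a p53 target, rose at 6 h by 0.55 ± 0.09 in Tg and 0.63 ± 0.09 in WT cells and was lower than at 0 h at 24 h (-0.31 ± 0.09 in Tg, -0.47 ± 0.09 in WT). Chek2, a checkpoint kinase gene, was higher at 24 h by 1.19 ± 0.33 in Tg and 1.22 ± 0.33 in WT cells, and Mdm4, a p53 inhibitor gene, lower (-0.47 ± 0.12 in Tg, -0.52 ± 0.12 in WT). When the 3 WT arrays marked Rep were left out, Fasl at 6 h (0.85, adjusted p = 0.063) and Chek2 (1.42, adjusted p = 0.12) and Mdm4 (-0.47, adjusted p = 0.11) at 24 h no longer passed in WT cells, while Tnfrsf10b, a death receptor gene, and Zmat3, a p53 target gene, then passed as higher at 6 h.

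Genes of cytokine and FOXO control, which are known to act on Bcl2 and Bcl2l11, changed in both directions: of 8 measured of 9, 3 rose and 3 fell at 6 h and at 24 h in each genotype. Il7r, the receptor chain for the survival cytokine IL-7, fell at 6 h (-3.19 ± 0.35 in Tg, -2.93 ± 0.35 in WT), as did Stat5b (-1.03 ± 0.09 in Tg, -1.0 ± 0.09 in WT) and Foxo1 (-0.65 ± 0.12 in Tg, -0.69 ± 0.12 in WT). Il2 rose by 4.70 ± 0.55 in Tg and 4.49 ± 0.55 in WT cells, Il2ra by 2.89 ± 0.33 and 3.06 ± 0.33 and Il2rb by 0.53 ± 0.08 and 0.64 ± 0.08. Of the 17 genes for turnover and binding of MCL1, BAD and BIM, all measured, 7 rose and 1 fell at 6 h in each genotype. Beside these 2 lists, the shares of all probe sets at 6 h were 12.5% higher and 12.9% lower in Tg cells, and 12.6% and 13.9% in WT cells. Pim2, a kinase gene whose product acts on BAD, rose by 1.01 ± 0.20 in both Tg and WT cells. Ywhag, a 14-3-3 gene, rose by 0.88 ± 0.09 in Tg and 0.93 ± 0.09 in WT cells, Dynll2, a dynein light chain gene whose product binds BMF, by 0.86 ± 0.15 and 0.78 ± 0.15, and Pim3 by 0.58 ± 0.10 and 0.61 ± 0.10. Btrc, a ubiquitin ligase gene, was the 1 that fell (-0.43 ± 0.10 in Tg, -0.34 ± 0.10 in WT). At 24 h, 6 of the 17 were higher and 2 lower in Tg cells, and 5 higher and 1 lower in WT cells. Without the 3 WT arrays marked Rep, the WT calls of the cytokine and FOXO list were the same genes, and the turnover list had 6 higher and 0 lower at 6 h (Btrc -0.19, adjusted p = 0.49) and 3 higher and 0 lower at 24 h. Between Tg and WT cells none of the genes of these lists passed at any time or on average, with or without those arrays. Il2rb, the beta chain of the IL-2 receptor, averaged 0.19 ± 0.05 higher in Tg cells (interval 0.09 to 0.29, adjusted p = 0.56), and Endog averaged -0.23 ± 0.07 (interval -0.39 to -0.06, adjusted p = 0.76).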

How the data were processed

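Expression was measured on 12 one-colour arrays. The values are the authors' deposited log2 intensities of 28853 probe sets, between 3.49 and 15.38. No summarisation or normalisation method is named in the labels or file headers used here. Because array medians ranged over 0.11, above the limit of 0.1 chosen for this work, quantile normalisation between arrays was applied. Array data carry no read depth, and 2 arrays per group limit the precision.

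By the array annotation, 21789 probe sets had 1 symbol, 1621 several and 5443 none. Tests covered the 23410 with any symbol and used limma 3.58.1 (R 4.3.3): a single fit to 12 arrays estimated 6 group means, with 6 residual and 3.05 prior degrees of freedom. Benjamini-Hochberg adjustment ran over all of them within each of 12 comparisons, at 0.05, and intervals are 95% intervals of the fit. A run on simulated data gave each array independent noise, of equal spread in all groups, and no effect of the Rep mark. It therefore does not cover unequal spread or such an effect in these arrays. Replicate arrays differed by a root mean square of 0.206 to 0.264 in Tg groups and 0.312 to 0.342 in WT groups.

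Deviations of arrays with the same mark correlated across groups (15 correlations, r = 0.138 to 0.591), so the mark was also fitted as a block. Blocked values are given where a call of the family changed. The block fits the same shift between the marks in all groups, whereas the WT arrays marked Rep stood apart in neutrophil markers. Alternatives in scaling were no further normalisation and median centring. Alternatives in the features were dropping the 40% dimmest, keeping all rows, and 1 probe set per gene. Alternatives in the model were trended and robust moderation, array weights and a fit to the compared groups only. Each array was left out in turn, and once all 3 WT arrays marked Rep.

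Every gene of the family was named. From the other lists, up to 4 genes per direction with the largest differences past the threshold in WT were named. Genes added to complete a count of 5 or fewer (Diablo, Casp2, Xiap, Bcl2l2, Tnfrsf10b, Zmat3), Htra2, and Bcl2l14 in the closing section were chosen after their values were seen. The genes and the lists were chosen with earlier results of these data known. Likeness is Pearson's r with every tested probe set of 1 symbol, predicted genes and the family left out, for the 4 genes of the widest range of group means. Promoter sequences and gene positions are RefSeq's on GRCm38.p6. Python 3.11.15 with matplotlib 3.10.9, numpy 2.4.6 and pandas 2.3.3 made the tables and plots.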

Additional observations from a re-analysis of the deposited data

How the results depend on the processing

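The settings run were the 22 alternatives named with the processing, and no difference of the 9 genes that passed changed its sign under any of them. Between Tg and WT cells, and in the difference of responses, the count of genes past the threshold was 0 under all of those run. With the replicate block, 5 of 9 genes passed from 6 h to 24 h in WT cells and 4 of 9 in Tg cells, against 1 each without it; at 6 h against 0 h the counts stayed at 5 in each genotype, and at 24 h against 0 h they were 6 in each against 4. The block raised the calls over all 23410 probe sets as well, from 6 h to 24 h to 4514 in Tg and 4298 in WT cells with it, against 3348 and 3124 without it. For 24 h against 6 h, the values as deposited gave 2 in Tg and 2 in WT cells, median centring 3 and 2, and leaving out the 40% dimmest probe sets, which lowers the number of tests, 2 and 3. The compared groups alone, with fewer arrays for the spread, gave 0 for 24 h against 6 h and 3 for 6 h against 0 h in WT cells. Without the 3 WT arrays marked Rep, counts in WT cells were 2 at 6 h and 2 at 24 h against 0 h and 0 for 24 h against 6 h, and in Tg cells 2 for 24 h against 6 h. Leaving out 1 array gave 3 to 5 genes at 6 h against 0 h in Tg and 3 to 5 in WT cells, 2 to 4 in Tg and 3 to 5 in WT cells at 24 h against 0 h, and 1 to 3 in Tg and 0 to 2 in WT cells for 24 h against 6 h. The shares of all probe sets called with arrays left out are not given here, so these counts are not read as particular to the 9 genes. For the other lists, leaving out the 3 WT arrays marked Rep was added after seeing the data. In WT cells the apoptosome list then had 2 lower at 6 h, and 3 higher and 2 lower at 24 h, the other BCL2 genes 1 lower at 24 h, the p53 arm 2 higher at 6 h and 0 higher and 1 lower at 24 h, and the turnover list 0 lower at 6 h and 3 higher and 0 lower at 24 h. The cause of these shifts was not tested. With 2 arrays a group, the number of arrays limits the precision; signal over background is not in the table used here.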

Other observations

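Bcl2l14, a BCL2-related gene of debated function, gave higher values in Tg than in WT cells on every pair of arrays, without passing the test. It gave 7.14 and 7.09 in Tg cells at 0 h, against 6.37 and 6.69 in WT cells, then 7.21 and 7.51 against 6.95 and 7.02 at 6 h, and 7.96 and 8.05 against 7.32 and 7.70 at 24 h. The groups did not overlap at any of the 3 times. The average difference, Tg minus WT, was 0.48 ± 0.09 (95% interval 0.28 to 0.69, unadjusted p = 0.00041, limma adjusted p = 0.32 over 23410 probe sets). Without the 3 WT arrays marked Rep it was 0.61 ± 0.09 (adjusted p = 0.17). Its pattern was noticed after its values were seen.

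The 3 probe sets shared by the copies of the survival gene A1 (Bcl2a1a, Bcl2a1b, Bcl2a1c and Bcl2a1d) also read higher in Tg cells before stimulation. The first of them, 10587683, gave 10.11 and 10.14 in Tg cells at 0 h, against 9.69 and 9.66 in WT cells. The differences of the 3 probe sets at 0 h were 0.45, 0.40 and 0.41 (unadjusted p from 0.0014 to 0.0071, limma adjusted p = 1), and at 24 h they were 0.09, 0.09 and 0.10. Without the 3 WT arrays marked Rep they were 0.44, 0.37 and 0.39 at 0 h, and -0.02, -0.03 and -0.02 at 24 h (limma adjusted p = 1). Neutrophils are known to express A1, and the median of their markers at 0 h was 11.99 and 11.42 in Tg cells, against 12.49 and 9.03 in WT cells. Their part in this difference was not tested.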
